A study of Homo sapiens with 40 samples.

Results

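hTERT-RPE1 cells that received control siRNA were compared on day 2 and day 1 after transfection, which gave the change with time in a culture without knockdown. The arrays were taken by their titles, 3 of day 2 and 3 of day 1, and they are 6 of the 40 arrays of the series. The line consists of normal human retinal pigment epithelial cells immortalized with the catalytic subunit of telomerase (hTERT). The cells were plated at 30% confluence directly onto 15 nM siRNA and lipid reagent (reverse transfection), in medium with serum, and the control was a commercial negative control siRNA without a human target. The study asked how normal and tumor cells respond to loss of the histone gene regulators CASP8AP2, NPAT and HINFP, and these controls were the reference for knockdown. For comparison, the same step in time was taken from 6 arrays of hTERT-RPE1 cells with CASP8AP2 siRNA and from 6 arrays of U2OS osteosarcoma cells with control siRNA, also with 3 arrays per day. No array of untransfected cells was used, so time after transfection, time in culture, cell density and the day of harvest cannot be told apart.

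A dividing cell makes the transcripts of DNA replication from late G1 phase, under E2F factors, and those of mitosis in G2 phase, from promoters that often carry a cell cycle element (CHR) and CCAAT boxes. A culture that grows denser contains fewer cycling cells in most untransformed lines. The coactivators YAP and TAZ with TEAD factors, and the serum response factor SRF with its actin-regulated cofactors, drive genes of the cytoskeleton and of cell adhesion, and both pathways respond to cell shape, contact and serum. In a mixed culture, fewer cells that express a transcript and less of it per cell cannot be told apart on an array.

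Each array gave a deposited value on the log2 scale for 22069 Ensembl genes, so a difference of 1 is a 2-fold change. The means of the 6 arrays lay between 6.00 and 6.05 and their medians between 5.44 and 5.50. Correlation across genes was 0.9973 to 0.9975 between arrays of day 1, 0.9956 to 0.9967 between arrays of day 2 and 0.9941 to 0.9957 between days. A symbol could be paired with 1893 genes (8.58%), through the part of the study's siRNA screen tables that was available here. The screen itself covered many more genes. Each gene group below is therefore represented by a part of its members. Of 13 retinal pigment epithelium markers listed, only RLBP1 (retinaldehyde binding) and BEST1 (a chloride channel) had a symbol. They lay between 3.66 and 4.35 in the 6 arrays, near the 25th percentile of the arrays (3.77 to 3.87). Of the mesenchymal markers with a symbol, CDH2 (N-cadherin) lay between 11.15 and 11.45 and FN1 (fibronectin) between 12.82 and 12.99. COL1A2 (collagen I), the third, was low (4.28 to 4.48). Of the osteoblast or osteosarcoma markers, RUNX2 lay between 9.47 and 9.69 and IBSP between 3.84 and 4.44. The 3 leukocyte markers with a symbol (3.07 to 4.89) and the 2 endothelial ones (3.49 to 4.15) were low on both days. No marker with a symbol was called. The simple epithelium, keratinocyte, neural and telomerase lists had 0 members with a symbol and could not be read.

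Among genes with a symbol, HAS2, PTGS2 and IGFBP3 had the largest falls between day 1 and day 2, and CA9, NXN and BMP4 the largest rises. All 14 mitosis and spindle genes with a symbol were lower on day 2, and 8 of 9 targets of YAP/TAZ and SRF were higher. In the limma test with Benjamini-Hochberg adjustment, 2209 of 22069 genes (10.0%) were called at an adjusted p under 0.05, of which 983 (4.45%) were higher and 1226 (5.56%) lower on day 2. Most changes were small. The median absolute log2 change of the called genes was 0.32, 1840 of them changed by less than 0.5, and 17 rose and 27 fell by at least 1. All 3 day 2 arrays lay above all 3 day 1 arrays for 11.2% of the genes and below them for 11.9%. Of the genes with a symbol, 256 (13.5%) were called, 109 higher and 147 lower. All members of the gene lists below are among these genes, which were called more often than all genes (13.5% against 10.0%). The shares of all genes given beside the lists are therefore somewhat low as a background. The spread in this test is shared with the other 6 groups of days 1 and 2. With only the 6 arrays of the comparison the count was 722, of which 706 were among the 2209. Without a single array it lay between 1560 and 2042.

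**Figure D1:**
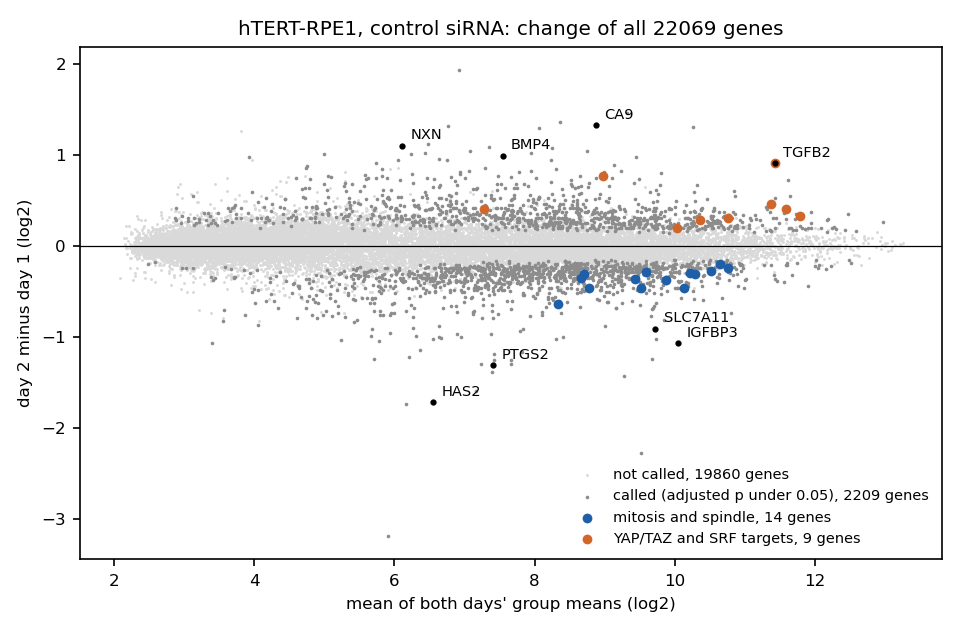
Log2 change from day 1 to day 2 (vertical axis) against the mean log2 value of both days (horizontal axis) for all 22069 genes in hTERT-RPE1 cells with control siRNA, with 2209 called genes in darker grey. All 14 mitosis and spindle genes (blue) lie below 0 and all 9 YAP/TAZ and SRF targets (orange) above 0, while HAS2, PTGS2 and CA9 are farther from 0 than either group.

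Genes of mitosis and the spindle were lower on day 2 without exception among those with a symbol. Of 87 genes listed, 14 had a symbol, and 14 of 14 fell (0 rose), against 5.56% of all genes called lower. Their median log2 change was -0.34, against 0.00 for all genes, with a range from -0.64 to -0.20. In all 14 genes every day 2 array lay below every day 1 array, against 11.9% of all genes.

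The promoters of ESPL1, CDCA8 and KIF23 are shown because they carry, in a short stretch before the start of the gene, the motifs that the mitotic genes share. Each line gives the 250 bases before the RefSeq gene start (GRCh38.p14, plus strand), 5′ to 3′, with capitals for CHR (TTTGAA) and the CCAAT box (CCAAT), each in either orientation. They lie at chr12:53268049-53268298 for ESPL1, chr1:37692266-37692515 for CDCA8 and chr15:69414099-69414348 for KIF23, directly upstream of the first exon.
ESPL1: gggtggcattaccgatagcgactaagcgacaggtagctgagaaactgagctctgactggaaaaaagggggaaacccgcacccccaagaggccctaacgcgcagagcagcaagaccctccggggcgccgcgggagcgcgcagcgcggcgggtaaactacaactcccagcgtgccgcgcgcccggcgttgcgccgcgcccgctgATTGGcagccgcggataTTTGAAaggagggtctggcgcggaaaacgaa
CDCA8: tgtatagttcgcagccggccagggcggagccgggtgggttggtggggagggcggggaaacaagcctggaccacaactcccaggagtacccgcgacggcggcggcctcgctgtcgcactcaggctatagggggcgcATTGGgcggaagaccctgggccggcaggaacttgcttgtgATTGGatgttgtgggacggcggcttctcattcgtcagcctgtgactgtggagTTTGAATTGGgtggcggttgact
KIF23: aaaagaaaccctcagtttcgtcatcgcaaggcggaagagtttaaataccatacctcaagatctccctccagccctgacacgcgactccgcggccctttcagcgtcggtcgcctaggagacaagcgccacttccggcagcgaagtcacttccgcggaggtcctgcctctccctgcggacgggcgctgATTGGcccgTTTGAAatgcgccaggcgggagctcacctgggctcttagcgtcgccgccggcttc
In these promoters CHR starts 31, 23 and 55 bases before the gene start. In CDCA8 it overlaps a CCAAT box in the reverse orientation. Of the 14 mitotic genes, 13 had a RefSeq promoter of 300 bases (250 before the start and 50 after), and 10 of 13 (76.9%) held CHR, against 15.2% of all promoters in the table. The CCAAT box was held by 8 of 13 (61.5%) against 34.6%, and the E2F motif used here (TTTCCCGC, TTTGGCGC or TTTCGCGC) by 0 of 13 against 2.74%. These are matches of letters and not measured binding sites.

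ESPL1 encodes separase, the protease that cleaves cohesin at anaphase. Its value was 8.71, 8.63 and 8.63 on day 1 and 8.09, 7.98 and 7.98 on day 2. The days did not overlap, and the level on day 2 was 64.2% of that on day 1 (log2 change -0.64, SE 0.07, limma adjusted p = 1.53e-06). CDCA8 encodes borealin of the chromosomal passenger complex, and it was at 10.39, 10.33 and 10.35 and then at 10.09, 9.83 and 9.78. Its first day 2 array was the highest of that day, though still below day 1 (log2 change -0.46, SE 0.07, adjusted p = 8.26e-05).

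The other falls covered the kinetochore, spindle motors and cytokinesis. NUF2 (outer kinetochore) was at 9.61, 9.64 and 9.59 on day 1 and at 9.23, 9.21 and 9.30 on day 2, a log2 change of -0.37. KIF11, the motor that separates the spindle poles, was at 10.44 on each array of day 1 and at 10.09, 10.10 and 10.20 on day 2. GTSE1 (-0.47), KIF18B (-0.47) and KIF2C (-0.36), which act on spindle microtubules, fell as well. So did KIF14 (-0.31), ECT2 (-0.29), KIF23 (-0.28) and CEP55 (-0.20), which act in cytokinesis, NCAPG of condensin (-0.38), the spindle protein CKAP2 (-0.24) and the transcription factor MYBL2 (-0.30). CEP55 was the smallest of these falls, with 10.75, 10.76 and 10.73 on day 1 against 10.59, 10.47 and 10.57 on day 2. With only the 6 arrays in the fit 7 of the 14 were called, and under the other settings 13 or 14.

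Genes of DNA replication moved less. Of 51 listed, 19 had a symbol, of which 6 fell, 0 rose and 13 did not pass the test, against 5.56% of all genes called lower. Their median was -0.15. CDC7, the kinase that fires origins, was at 7.07, 7.05 and 6.97 on day 1 and at 6.04, 6.49 and 6.52 on day 2 (log2 change -0.68, SE 0.10, adjusted p = 0.000101). The first day 2 array was well below the other two. The other falls were CLSPN (-0.37) of the replication checkpoint, the licensing factor CDT1 (-0.35), the exonuclease EXO1 (-0.28), the helicase component CDC45 (-0.27) and ORC1 of the origin recognition complex (-0.26). MCM3 (-0.07), FEN1 (-0.04), LIG1 (-0.02) and CDC6 (-0.07) did not pass the test. The count was 1 with only the 6 arrays of the comparison and 3 without day 1 replicate 2, where CDT1 and CLSPN had adjusted p = 0.0552 and 0.0547.

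The promoter of CDT1 is shown as a replication gene with the E2F motif in capitals (250 bases before the start, chr16:88803539-88803788, plus strand).
CDT1: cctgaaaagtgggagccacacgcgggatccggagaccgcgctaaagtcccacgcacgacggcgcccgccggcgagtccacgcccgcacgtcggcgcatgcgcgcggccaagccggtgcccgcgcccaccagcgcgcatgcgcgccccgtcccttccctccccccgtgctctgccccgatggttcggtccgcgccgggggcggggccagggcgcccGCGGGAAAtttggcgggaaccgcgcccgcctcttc
The motif starts 35 bases before the gene start, in reverse orientation. Of the replication genes, 12 had a promoter in the table, and 6 of 12 (50%) held the E2F motif against 2.74% of all promoters, while 0 of 12 held CHR. The E2F motif was thus held by 6 of 12 replication promoters and 0 of 13 mitotic ones, and CHR by 0 of 12 and 10 of 13. Among the 6 with the E2F motif, CLSPN and CDT1 fell, while CDC6, MCM3, POLA1 and LIG1 did not pass the test.

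Of 7 cyclin, CDK inhibitor and RB family genes, 3 fell, against 5.56% of all genes called lower: E2F2 (-0.36), the RB relative RBL1 (-0.29) and cyclin A2, CCNA2 (-0.22). The count was 1 with only the 6 arrays of the comparison. CCNE1 (-0.05), CCNE2 (-0.16) and E2F1 (-0.11) did not pass the test. The call of CCNA2 was weak (adjusted p = 0.04), with 10.87, 10.83 and 10.81 on day 1 against 10.78, 10.52 and 10.54 on day 2, and it was not called under 8 of 15 other settings (adjusted p up to 0.237). For nucleotide supply 2 of 7 fell (0 with only the 6 arrays), against the same 5.56%: RRM2 of ribonucleotide reductase (-0.28) and UMPS of pyrimidine synthesis (-0.28). ODC1, the first enzyme of polyamine synthesis, fell from 11.65, 11.72 and 11.59 to 11.23, 11.31 and 11.24, the single call among 4 genes of ribosome biogenesis and MYC targets. Regulators of histone genes did not pass the test: CASP8AP2 changed by -0.03, NPAT by -0.08 and HINFP by 0.06. Of 61 replication-dependent histone genes, 0 had a symbol here.

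**Figure D2:**
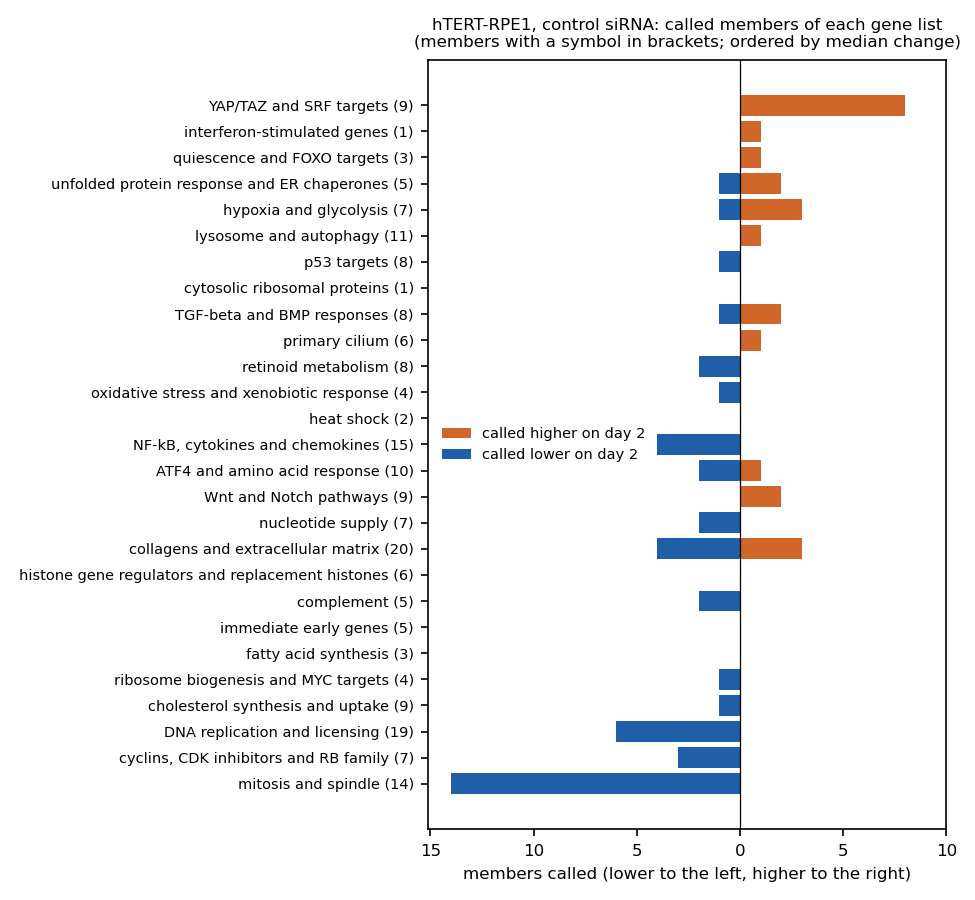
Number of called members of each gene list in hTERT-RPE1 cells with control siRNA, lower on day 2 to the left and higher to the right, with the number of members with a symbol in brackets and lists ordered by median change. Mitosis and spindle has 14 lower and 0 higher, and YAP/TAZ and SRF targets have 8 higher and 0 lower.

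Targets of YAP/TAZ and SRF moved the other way. Of 38 listed, 9 had a symbol, of which 8 rose and 0 fell, against 4.45% of all genes called higher. The median was 0.40, and in all 9 every day 2 array lay above every day 1 array, against 11.2% of all genes. TGFB2, a secreted TGF-beta ligand, was at 11.01, 10.94 and 10.96 on day 1 and at 11.94, 11.83 and 11.87 on day 2 (1.88-fold, log2 change 0.91, SE 0.08, adjusted p = 1.46e-07). TNS1 (tensin 1), which links integrins to actin, was at 8.58, 8.57 and 8.61 and then at 9.56, 9.24 and 9.25. These groups were far apart relative to their spread (log2 change 0.77, SE 0.09).

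CCN2 (connective tissue growth factor) is a widely used readout of YAP activity, and its promoter is shown with the TEAD motif (GGAATG, either orientation) in capitals. The line gives the 250 bases before the start on the minus strand, chr6:131951373-131951622 (GRCh38.p14).
CCN2: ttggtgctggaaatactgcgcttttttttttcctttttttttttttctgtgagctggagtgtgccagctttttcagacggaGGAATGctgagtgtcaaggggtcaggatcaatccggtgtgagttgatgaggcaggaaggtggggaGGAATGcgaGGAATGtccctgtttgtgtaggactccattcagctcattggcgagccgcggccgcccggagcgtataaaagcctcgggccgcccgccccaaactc
The 3 matches start 169, 104 and 95 bases before the start. The motif was held by 3 of 4 members with a RefSeq promoter (CCN2, MYH9 and TGFB2), against 14% of all promoters. CCN2 was at 11.16, 11.04 and 11.22 on day 1 and at 11.73, 11.58 and 11.48 on day 2 (1.37-fold, adjusted p = 8.96e-05). CRIM1 (0.40), a transmembrane protein that binds BMPs, ARHGEF17 (0.40), an activator of RhoA, and MYH9 (0.33), the heavy chain of nonmuscle myosin, also rose. SRF itself (0.28) and FHL2 (0.19), a cofactor at focal adhesions, were among the smaller rises. TPM1 (tropomyosin) was 0.31 higher but did not pass the test (adjusted p = 0.0585). With only the 6 arrays 5 were called, and under the other settings 7 to 9.

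**Figure D3:**
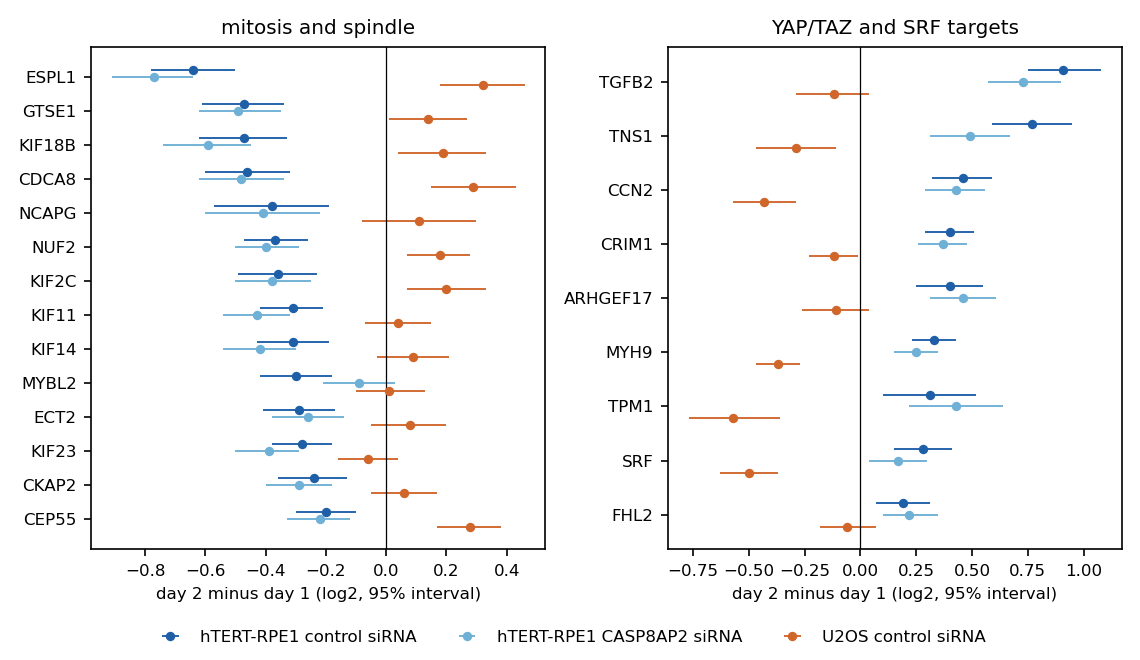
Log2 change from day 1 to day 2 with its 95% interval for the 14 mitosis and spindle genes (left) and the 9 YAP/TAZ and SRF targets (right), in hTERT-RPE1 cells with control siRNA (dark blue), hTERT-RPE1 cells with CASP8AP2 siRNA (light blue) and U2OS cells with control siRNA (orange). Both hTERT-RPE1 series lie on the same side of 0, and U2OS lies on the other side or near 0.

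CA9 (carbonic anhydrase IX, a hypoxia-induced enzyme of pH regulation) had the largest rise among genes with a symbol. It was at 8.10, 8.29 and 8.25 on day 1 and at 9.33, 9.94 and 9.36 on day 2, 2.52-fold higher (log2 change 1.33, SE 0.14, adjusted p = 2.47e-06). The second day 2 array was above the other 2. The 12 largest rises were chosen to have no overlap of the days. Its promoter is shown with the hypoxia response motif (HRE, ACGTG in either orientation, which also lies within CACGTG) in capitals, 250 bases at chr9:35673678-35673927, plus strand.
CA9: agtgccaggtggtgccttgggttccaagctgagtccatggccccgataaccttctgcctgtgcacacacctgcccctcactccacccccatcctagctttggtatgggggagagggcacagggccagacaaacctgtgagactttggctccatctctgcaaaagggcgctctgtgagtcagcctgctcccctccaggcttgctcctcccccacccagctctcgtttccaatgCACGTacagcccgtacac
The motif starts 18 bases before the gene start, and 21.4% of all promoters hold it. Of 7 genes of hypoxia and glycolysis with a symbol, 3 rose and 1 fell, against 4.45% of all genes called higher and 5.56% called lower. MXI1, an antagonist of MYC that hypoxia induces, went from 6.68, 6.56 and 6.65 to 7.32, 7.35 and 7.46 (log2 change 0.75, SE 0.06). LDHA (lactate dehydrogenase) rose by 0.16, with an adjusted p of 0.042, and it was not called under 11 of 15 other settings (adjusted p up to 0.255). LOX, a collagen crosslinking enzyme that hypoxia also induces, fell (-0.32), and ENO1 (-0.06), GPI (0.18) and P4HA2 (0.06) did not pass the test.

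Among secreted growth factors and their signaling, BMP4, a ligand of the BMP family, rose from 7.23, 6.88 and 7.05 to 7.88, 8.12 and 8.13 (1.98-fold, adjusted p = 6.81e-07). FST (follistatin), which binds activins, fell from 9.63, 9.66 and 9.50 to 9.50, 9.05 and 9.14 (log2 change -0.37, adjusted p = 0.00636). Its highest day 2 value equals its lowest day 1 value to 2 decimals. Of 8 genes of TGF-beta and BMP responses BMP4 and TGFB2 rose and FST fell, against 4.45% of all genes called higher and 5.56% called lower. SMAD7 (-0.07), TGFBI (0.06) and ID1 (-0.12) did not pass the test. NXN (nucleoredoxin), an inhibitor of Wnt signaling, rose from 5.59, 5.46 and 5.63 to 6.84, 6.70 and 6.45 (2.15-fold). PLCB4 (phospholipase C beta 4) rose by 0.94 and SPRY1, a feedback inhibitor of receptor tyrosine kinases, by 0.65. KCNT2 (a potassium channel, 0.78), PLAAT3 (a phospholipase, 0.81), IL2RB (a cytokine receptor subunit, 0.52) and RNF141 (0.51) complete the 12 largest rises. IL2RB was near the bottom of the range (3.80 to 4.61), where array values understate a change.

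**Figure D4:**
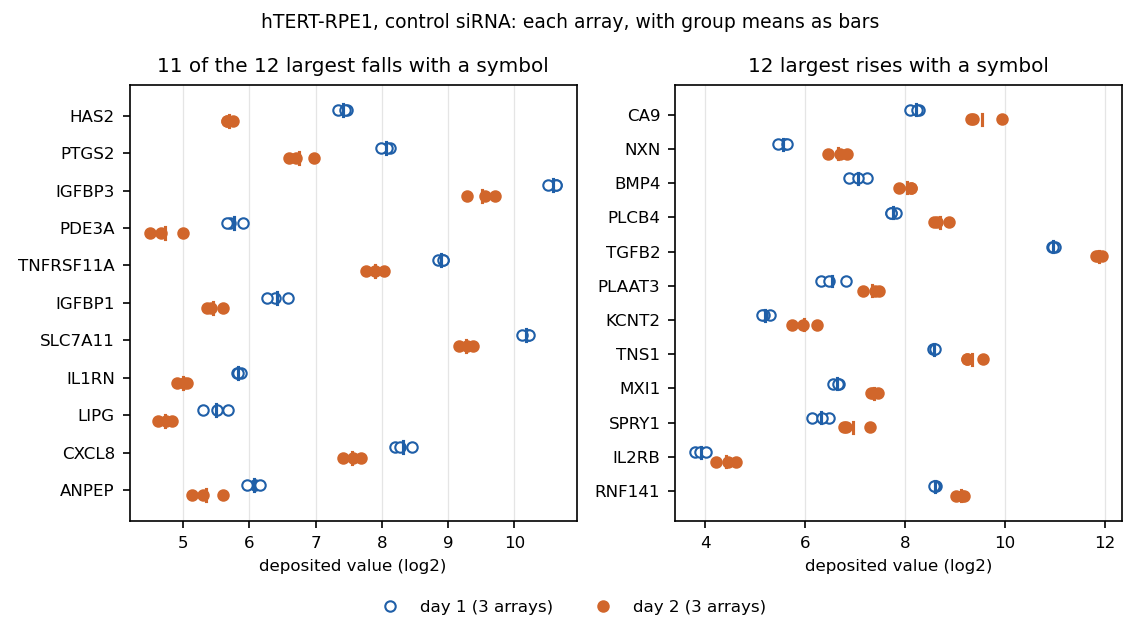
Deposited log2 value of each array on day 1 (open) and day 2 (filled) with group means as bars, for 11 of the 12 largest falls (left) and the 12 largest rises (right) among called genes with a symbol whose days do not overlap. HAS2 goes from 7.34 to 7.47 on day 1 to 5.66 to 5.75 on day 2, and CA9 from 8.10 to 8.29 to 9.33 to 9.94.

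HAS2, the synthase of hyaluronan in the pericellular matrix, had the largest fall among genes with a symbol. It was at 7.47, 7.34 and 7.44 on day 1 and at 5.75, 5.67 and 5.66 on day 2, so that 30.3% of the level was left (log2 change -1.72, SE 0.10, adjusted p = 3.68e-10). The change was many times the spread within either day. Other matrix genes moved both ways. Of 20 with a symbol, HAS2 included, 3 rose, 4 fell and 13 did not pass the test (median -0.04). Of all genes, 4.45% were called higher and 5.56% lower. COL6A3 (collagen VI) fell by 0.58 and COL7A1 (anchoring fibrils) by 0.29. COL4A4 (0.38), COL5A2 (0.33) and LAMB2 (0.19) rose, though 0 of these rises was called with only the 6 arrays, or without day 2 replicate 3. FN1 (-0.04) and COL3A1 (0.01) did not pass the test.

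Inflammatory genes fell without a rise among the called members, but most of the group did not pass the test. Of 15 genes of NF-kB, cytokines and chemokines with a symbol, 4 fell, 0 rose and 11 did not pass (median -0.00), against 5.56% of all genes called lower. PTGS2 (cyclooxygenase 2, prostaglandin synthesis) was at 8.12, 8.08 and 7.98 on day 1 and at 6.60, 6.97 and 6.70 on day 2, with 40.4% left (log2 change -1.31, SE 0.10, adjusted p = 4.53e-08). CXCL8 (interleukin 8, a neutrophil chemokine) was at 8.46, 8.20 and 8.28 and then at 7.68, 7.41 and 7.56. The log2 change of CXCL8 was -0.77 (SE 0.12). Both genes are among the 12 largest falls, which were chosen to have no overlap of the days. TNFAIP6, a hyaluronan-binding protein, fell by 0.69 and TNFAIP3 (A20), a brake on NF-kB, by 0.43, whereas NFKB1 (0.14), NFKBIE (0.12) and BIRC3 (0.10) did not pass the test. IL1RN, the interleukin 1 receptor antagonist, fell from 5.81, 5.87 and 5.83 to 4.91, 5.06 and 5.02 (log2 change -0.84, SE 0.08). Complement C3 fell by 0.44 and the complement inhibitor CD59 by 0.26, 2 of 5 complement genes, against the same 5.56%.

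IGFBP3 and IGFBP1, which bind insulin-like growth factors, were both among the 12 largest falls. IGFBP3 was at 10.62, 10.63 and 10.50 on day 1 and at 9.55, 9.70 and 9.28 on day 2, with 47.6% left (log2 change -1.07, SE 0.13, adjusted p = 9.62e-06). IGFBP1 went from 6.59, 6.39 and 6.26 to 5.36, 5.42 and 5.60. Genes were taken into the 12 largest falls only if every day 2 array lay below every day 1 array. PDE3A, a phosphodiesterase (-1.04), TNFRSF11A, the receptor RANK (49.9% of day 1 left), the endothelial lipase LIPG (-0.77) and the aminopeptidase ANPEP (-0.72) were also among the 12 largest falls, with SLC7A11. SLC7A11, the cystine transporter induced by ATF4 and NRF2, went from 10.21, 10.22 and 10.11 to 9.16, 9.28 and 9.37 (log2 change -0.91, SE 0.06, adjusted p = 7.34e-09). Most members of its groups that had a symbol did not pass the test. Of all genes, 5.56% were called lower and 4.45% higher. Of 10 genes of the ATF4 and amino acid response, SLC7A11 and the glutamine transporter SLC1A5 (-0.32) fell and the tyrosyl-tRNA synthetase YARS1 (0.21) rose, while ASNS (-0.01) and PHGDH (0.10) did not pass the test. Of 33 genes listed for the oxidative stress response, 4 had a symbol, of which 1 fell (SLC7A11). The members without a symbol could not be followed by name.

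In retinoid metabolism 2 of 8 genes fell, against 5.56% of all genes called lower. They were DHRS9 (-0.69), a retinol dehydrogenase that was near the bottom of the range (4.35 to 5.26), and ALDH1A3 (-0.47), which makes retinoic acid. ALDH1A3 lost its call without any 1 of 5 of the 6 arrays (adjusted p up to 0.0932). Among ER chaperones HSPA5 (0.20) and CALR (0.20) rose and DNAJB9 (-0.30) fell, of 5 genes. These calls were lost under 6, 7 and 6 of 15 other settings, and leaving out 1 array brought the count of rises to 0 (day 2 replicate 2 or 3, or day 1 replicate 3) and that of falls to 0 (any array but day 2 replicate 3). In the remaining lists the calls were STAT2 (0.30, the single interferon-stimulated gene with a symbol), FOXO1 (0.26, of 3 quiescence genes), CTSZ (0.35, of 11 lysosomal genes), ARL3 (0.24, of 6 ciliary genes), KREMEN1 (0.45) and SFRP1 (0.29), both Wnt inhibitors, of 9 Wnt and Notch genes, PMAIP1 (-0.36, of 8 p53 targets) and LSS (-0.25, of 9 genes of cholesterol). The other members of these lists did not pass the test, and 10.0% of all genes were called. The lists of fatty acid synthesis (3 genes, FASN -0.18), heat shock (2 genes, FKBP4 0.03), immediate early genes (5 genes, EGR2 -0.20) and ribosomal proteins (RPLP2 0.06) held 0 called genes. The largest changes of all were in genes without a symbol here. ENSG00000173597 was at 7.48, 7.56 and 7.48 on day 1 and at 4.37, 4.16 and 4.41 on day 2 (log2 change -3.19), and ENSG00000100292 fell by 2.28. ENSG00000163431 rose by 1.93 and ENSG00000213626 by 1.46.

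The step from day 1 to day 2 was also measured in hTERT-RPE1 cells with CASP8AP2 siRNA, on 6 other arrays. Both comparisons used 1 estimate of the spread from all 24 arrays, so their calls are not separate. There 3084 genes (14.0%) were called, and 1415 were called in both comparisons, which is 64.1% of the control calls and 45.9% of the calls under CASP8AP2 siRNA. Of the 1415, 1401 had the same sign. Of the 44 control calls of at least 1 in absolute log2 change, 40 were called with the same sign. Of the 14 mitotic genes 13 fell (MYBL2, -0.09, did not pass), and 8 of the 9 YAP/TAZ and SRF targets rose, with SRF at 0.17 (adjusted p = 0.0761). HAS2 changed by -1.43, PTGS2 by -1.26, SLC7A11 by -1.13 and CA9 by 1.43.

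The difference between the 2 siRNAs in this step was tested as an interaction, which uses the control arrays too, and 144 genes (0.652%) were called, 133 with a higher change under CASP8AP2 siRNA. With only the 12 arrays compared it was 67. Of the control calls, 48 also differed between the siRNAs. IL1RN fell in control cells but changed by -0.12 under CASP8AP2 siRNA (5.95 and 5.84 as means of day 1 and day 2), a difference of 0.72 (SE 0.12, adjusted p = 0.00285). PMAIP1 (NOXA, a proapoptotic p53 target) changed by -0.36 and 0.15, a difference of 0.51 (adjusted p = 0.0164). This difference was not called under 5 of 20 other settings (adjusted p = 0.0537 with each array centred on its median, and up to 0.166). C3 changed by -0.44 and 0.16, a difference of 0.60 (adjusted p = 0.0441, not called under 14 of 20 other settings). The largest differences with a symbol were in genes that did not pass the test in control cells. CCNA1, a germ line cyclin A, changed by 0.19 in control cells and by 2.50 under CASP8AP2 siRNA, from day 1 means near the bottom of the range (3.86 and 3.73). SPINT1 changed by -0.07 and 1.13, MCAM by 0.36 and 1.43, and PGF by -0.09 and 0.95. With only the arrays compared, the differences of SPINT1 and MCAM were not called (adjusted p = 0.0714 and 0.0688). NRG3, near the bottom of the range (about 3.85 to 4.29 as means), changed by 0.18 and -0.44.

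U2OS cells with control siRNA changed differently over the same days. There 2868 genes (13.0%) were called, 1609 higher and 1259 lower on day 2. Both lines shared 680 called genes, which is 30.8% of the hTERT-RPE1 calls and 23.7% of the U2OS calls. Of these 680, 352 had the same sign and 328 the opposite sign. The difference between lines was called for 2364 genes (10.7%), 1026 with a higher and 1338 with a lower change in hTERT-RPE1 (43.4% higher, and 53.4% with each array centred on its median). Among these 2364 were 1106 of the hTERT-RPE1 calls, but the difference uses the same hTERT-RPE1 arrays, so the calls are not separate. In U2OS, 5 of the 14 mitotic genes rose and 0 fell (3 with each array centred on its median), with a median of 0.13, and the change was lower in hTERT-RPE1 for 14 of 14 (12 to 14 under the other settings). ESPL1 changed by 0.32 and CDCA8 by 0.29 in U2OS. Of 19 replication genes 5 rose and 0 fell in U2OS, but 0 rose with each array centred on its median or without U2OS day 2 replicate 2 or 3. The change was lower in hTERT-RPE1 for 8 of 19, and for 5 to 10 under the other settings. It was 5 with median centring, cyclic loess, the replicate block or only the arrays compared, and without hTERT-RPE1 day 1 replicate 2 or 3, U2OS day 1 replicate 2 or 3, or U2OS day 2 replicate 2 or 3.

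The YAP/TAZ and SRF targets also differed by line. In U2OS, 5 of the 9 fell and 0 rose, with a median of -0.29, against 1259 of all 22069 genes called lower. The change was higher in hTERT-RPE1 for 8 of the 9 (8 or 9 under the other settings), against 1026 of all 22069 genes. CCN2 changed by -0.43 in U2OS (group means 11.97 and 11.54), SRF by -0.50 and MYH9 by -0.37. BMP4 rose in U2OS by 0.94, against 0.99 in hTERT-RPE1, and the difference was 0.05 with a 95% interval from -0.24 to 0.33. COL6A3 (-0.94) fell in U2OS too, from a higher level (group means 9.18 and 8.25).

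**Figure D5:**
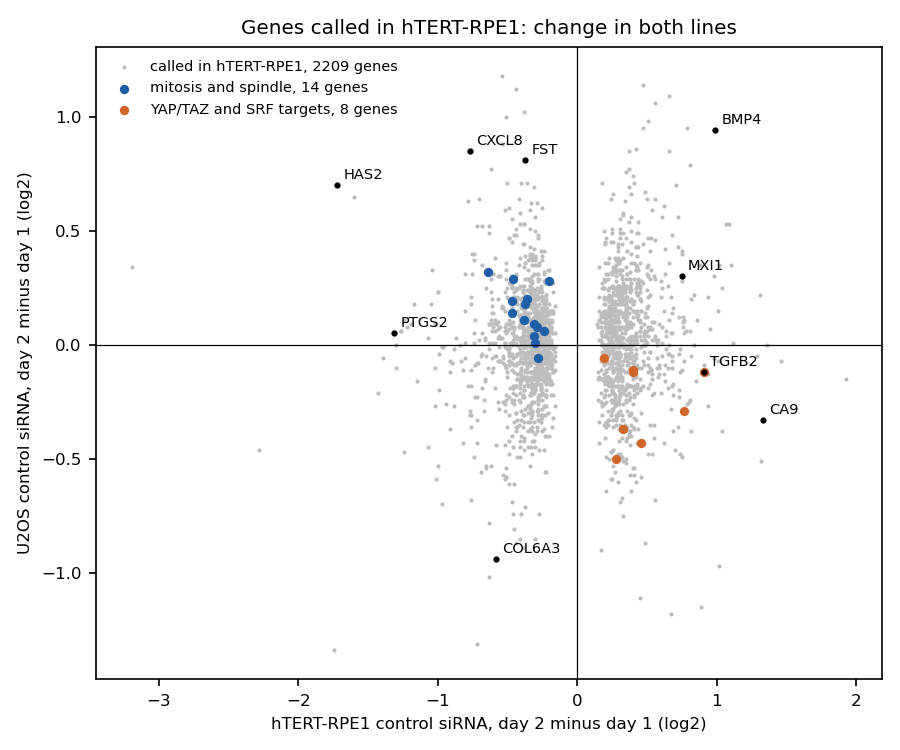
Log2 change from day 1 to day 2 in U2OS cells (vertical axis) against hTERT-RPE1 cells (horizontal axis), both with control siRNA, for the 2209 genes called in hTERT-RPE1. Mitotic genes (blue) lie to the left of 0 at or above the horizontal line apart from KIF23, YAP/TAZ and SRF targets (orange) lie lower right, and BMP4 is high in both lines.

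Among the largest differences between lines with a symbol, HAS2 and CXCL8 moved in opposite directions: HAS2 rose in U2OS by 0.70 (group means 6.77 and 7.47), a difference of -2.42 (SE 0.14, adjusted p = 7.10e-10), and CXCL8 rose in U2OS by 0.85, a difference of -1.61. CD22 also fell in hTERT-RPE1 (-0.62) and rose in U2OS (0.77). CA9 did not pass the test in U2OS (-0.33, at 5.53 and 5.20), a difference of 1.66, and PLCB4 fell there by 0.27, a difference of 1.22. The remaining genes did not pass the test in hTERT-RPE1. ITGA11, an integrin for collagen, changed by 0.14 in hTERT-RPE1 and fell by 1.02 in U2OS. NRG3 changed by 0.18 against -0.95, and IL13RA2, a decoy receptor near the bottom of the range in hTERT-RPE1, by -0.13 against 1.27.

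On day 3 hTERT-RPE1 cells with control siRNA were measured on 2 arrays, whose values appear to have been normalized apart (array means of 5.85 to 5.88 on day 3 against 6.00 to 6.05 on days 1 and 2). They are given without a test. HAS2 was at 5.20 and 5.56, IGFBP3 at 8.76 and 9.32 and SLC7A11 at 8.88 and 9.05. ESPL1 was at 7.54 and 7.63, CDCA8 at 9.01 and 9.14, KIF18B at 8.28 and 8.20 and MYBL2 at 9.24 on both. These mitotic values lay below those of day 2. Other well-expressed genes could be lower too: CDH2 had a mean of 11.37 on day 2 and 11.00 on day 3, and FN1 12.92 and 12.61. RUNX2 was not lower (9.61 and 9.67). Whether the mitotic genes fell further was not tested. CXCL8 was at 8.50 and 8.98 and ANPEP at 6.41 and 6.61, above their values on day 1, and CA9 was at 9.88 and 9.35, within its range on day 2 (9.33 to 9.94).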

How the data were processed

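Members and gene lists were chosen with earlier results of these data known. Per the labels and the study's methods, biotin-labelled RNA was hybridised to Affymetrix Human WT 1.1 arrays. The authors deposited log2 values, summarised with RMA (submitters' processing notes) in affy, on a custom chip definition with a probe set per Ensembl gene, whose version and build are not given in the sources used here. RMA sets the arrays of a set to a common distribution, so each change is relative to other genes. The precision is limited by the number of arrays, and the labels call replicates biological without naming cultures, so p-values may cover technical spread only.

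limma 3.58.1 in R 4.3.3 (lmFit, eBayes, default settings) was fitted to the 24 arrays of days 1 and 2, with 8 group means and 16 residual degrees of freedom. Tests were two-sided with Benjamini-Hochberg adjustment over 22069 genes, without a filter, and the procedure was tested on simulated data. No shared deviation of same-numbered arrays of the 2 days was seen, though 3 arrays per day cannot exclude a pairing. Replicate numbers did not enter the main test. Alternatives were other normalizations (median centring, quantile, cyclic loess), eBayes with a trend or robust, a replicate block, fewer groups in the fit, a filter on the mean value, a threshold on the change and leaving out each array.

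Symbols came from the part of the study's screen tables that was available here (1924 identifiers, updated to RefSeq). Of these, 7 with disagreeing symbols and 24 not found in RefSeq were dropped. Named genes were the 12 largest called rises and falls whose days do not overlap, up to 3 called members of each list in each direction (the largest change where none was called), CASP8AP2, NPAT and HINFP, and the 4 largest differences in each direction between lines and between siRNAs. At most 2 genes without a symbol were given per direction. Some genes that the rule names are not reported here. Other list members, and IL1RN, PMAIP1 and C3 between siRNAs, were named after their values were seen. Motifs were searched on both strands of 300-base promoters (RefSeq, GRCh38.p14).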

Additional observations from a re-analysis of the deposited data

Results flagged for a closer look

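The following differences passed the test of the difference itself (limma interaction term, 3 arrays per group). Between lines, the change from day 1 to day 2 with control siRNA differed for 2364 genes (10.7%), 1026 higher and 1338 lower in hTERT-RPE1. It was lower in hTERT-RPE1 than in U2OS for 14 of 14 mitosis and spindle genes and higher for 8 of 9 YAP/TAZ and SRF targets. The largest differences with a symbol (hTERT-RPE1 minus U2OS, log2) were 1.66 for CA9, 1.22 for PLCB4, 1.15 for ITGA11 and 1.13 for NRG3, and -2.42 for HAS2, -1.61 for CXCL8, -1.40 for IL13RA2 and -1.39 for CD22. Of these, IL13RA2 was near the bottom of the range in hTERT-RPE1 (3.24 to 3.66), as was NRG3.

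Between siRNAs in hTERT-RPE1, the change differed for 144 genes (0.652%). The differences (CASP8AP2 siRNA minus control siRNA, log2) were 2.31 for CCNA1, 1.20 for SPINT1, 1.07 for MCAM, 1.04 for PGF, 0.72 for IL1RN, 0.60 for C3, 0.51 for PMAIP1 and -0.62 for NRG3. NRG3 was the single gene with a symbol whose change was lower under CASP8AP2 siRNA. It lost its call under 9 of 19 other settings (adjusted p up to 0.182).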

How the results depend on the processing

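With only the arrays of the groups compared, the calls fell from 2209 to 722 in hTERT-RPE1 control cells and from 144 to 67 for the difference between siRNAs. That fit has fewer arrays to estimate the spread. With an absolute log2 change of at least 1 in addition, 44 of the 2209 remained. Leaving out an array gave 1560 to 2042 calls in hTERT-RPE1 control cells, 2148 to 2359 in U2OS, 1994 to 2418 for the difference between lines, 2321 to 2536 under CASP8AP2 siRNA and 83 to 145 for the difference between siRNAs, which was 83 without CASP8AP2 siRNA day 1 replicate 3 and 88 without CASP8AP2 siRNA day 2 replicate 3. Under all other settings these counts stayed within 1.5 times. Centring each array on its median moved the share of higher calls from 56.1% to 40.6% in U2OS and from 50.7% to 36.5% under CASP8AP2 siRNA, from 43.4% to 53.4% for the difference between lines, and from 44.5% to 41.2% in hTERT-RPE1 control cells.

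With the replicate number as a replicate block, 1943 genes were called in hTERT-RPE1 control cells, 2652 in U2OS, 2196 between lines, 2793 under CASP8AP2 siRNA and 105 between siRNAs. Deviations of same-numbered arrays of the 2 control days correlated at -0.03, 0.07 and 0.00, within the range for arrays of different numbers (-0.10 to 0.10). No pairing by number was seen, but 3 arrays per day cannot exclude one. Of the 24 largest changes with a symbol, 23 were called under every setting, and SPRY1 lost its call with only the 6 arrays (adjusted p = 0.0589). Of 1550 values of single genes under another setting, 1397 stayed on their side of the threshold, 147 lost a call, 6 gained one and 0 reversed. The calls of LDHA, SFRP1, LSS and FOXO1 were lost under 11, 9, 9 and 8 of 15 settings. Of 810 list counts, 713 stayed within 1.5 times, which includes counts that were 0 in both settings. Signal over background limits genes with values near 4.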
